A study of Mus musculus with 12 samples.

Results

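The genes described here are 37 genes of antioxidant defence, taken by symbol from the macrophage count table and joined to the tumor table by gene ID, out of 53801 gene rows. They comprise the stress sensor pair Nfe2l2 and Keap1, 5 genes of glutathione supply, 10 glutathione transferases, 3 glutathione peroxidases, 4 genes of the thioredoxin system, 5 enzymes that supply NADPH or sugar phosphates, 3 detoxifying oxidoreductases, 2 exporters, and catalase with 2 superoxide dismutases. All 37 were found in both tables. The rule used gene function and no measured value, but the genes were chosen with earlier results of these data known.

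NRF2, the product of Nfe2l2, is a transcription factor that KEAP1 holds at a low level by presenting it to a ubiquitin ligase, and oxidants or electrophiles that modify KEAP1 let NRF2 accumulate and bind antioxidant response elements. Its targets make and recycle glutathione, couple glutathione to reactive compounds, keep thioredoxin reduced and supply the NADPH that both systems use. In skin the pathway is known for protecting keratinocytes from oxidative and chemical damage, and in carcinomas its activity is known to favour survival under stress and drug treatment.

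The 12 RNA libraries came from sorted cells of cutaneous squamous cell carcinomas grown in FVB mice, 3 for each of 4 groups. Basal carcinoma cells carried a Rosa-YFP mark and were positive for the integrins CD49f and CD29, and were split into reporter-positive and reporter-negative cells by mScarlet, which reports TGF-beta signalling. Macrophages from the carcinomas were positive for CD45 and F4/80 and were split into FceRIa-positive and FceRIa-negative cells, FceRIa being the receptor chain that binds IgE. The comparisons described are reporter-positive against reporter-negative carcinoma cells, FceRIa-positive against FceRIa-negative macrophages, and carcinoma cells against macrophages. The sources used here do not give the driver of the YFP mark, the number of tumors or mice behind a library or the ages of the mice. The p-values therefore measure only how far these samples spread, and that spread may be technical.

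Total counts ran from 27951632 to 35088897 in the tumor libraries and from 33704786 to 40041144 in the macrophage libraries, so that a floor of 3 counts corresponds to 0.0749 to 0.107 CPM (counts scaled to library size) and covers counting error only. The 8 keratinocyte markers summed to between 69450 and 84710 CPM in the tumor libraries and the 8 macrophage markers to between 9162 and 16620 CPM in the macrophage libraries. Fcer1a itself was at 0 to 0.191 CPM in the macrophage libraries, so the transcript does not check that sort. Replicate 2 of the carcinoma cells differed from replicates 1 and 3 in both groups. Its chi-square of counts per degree of freedom was 46.8 to 98.9 against them, where replicates 1 and 3 gave 3.13 (reporter-negative) and 1.65 (reporter-positive). Pairs of macrophage replicates within a group gave 57.2 to 156. Macrophages are another cell type, so these values cannot tell whether replicate 2 or the likeness of replicates 1 and 3 is unusual. Whether replicates 1 and 3 come from separate tumors is not given in the labels. Markers of suprabasal keratinocytes summed to 159.6, 330.4 and 169 CPM in reporter-negative replicates 1 to 3 and to 274, 753 and 259 CPM in the positive ones, and 8 macrophage markers summed to 27.4, 57.3 and 27 and to 34.5, 84.8 and 32.9 CPM. Results that rest on replicate 2 are therefore given with and without it. In bulk RNA of sorted cells, fewer cells of a type and less RNA per cell cannot be told apart.

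Promoter sequences were searched because the list was drawn up around antioxidant function and NRF2, which binds a known DNA motif. The core of the antioxidant response element, TGACNNNGC, was looked for on both strands between 250 bases before and 50 bases after the start of each gene, in RefSeq promoter sequences on GRCm38.p6. Of the 37 members 32 had an entry, and 12 of these (37.5%) held the motif, against 14.0% of the 27025 genes in that table. Counted by promoter, 13 of 42 members' promoters (31.0%) and 4071 of all 32851 (12.4%) held it. Since NRF2 was part of how the list was drawn up, the shares are no independent evidence about it. The difference was not tested. The 5 members with no entry were Gsta4, Gclc, Gsr, Abcc1 and Aldh3a1. The windows printed here belong to part of the members described in detail and to Prdx1. Those of Srxn1, G6pdx, Gclm and Pgd, which also held the motif, are not printed. The printed windows run 5′ to 3′ on the strand that reads the motif, which is in capitals with 10 bases on either side.

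Nfe2l2: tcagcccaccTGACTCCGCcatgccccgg
Txnrd1: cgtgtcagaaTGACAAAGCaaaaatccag
Sod1: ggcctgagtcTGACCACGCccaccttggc
Gstm5: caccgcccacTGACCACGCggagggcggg
Mgst1: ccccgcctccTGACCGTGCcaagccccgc
Abcc4: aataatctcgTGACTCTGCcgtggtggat
Me1: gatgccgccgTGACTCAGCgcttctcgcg
Prdx1: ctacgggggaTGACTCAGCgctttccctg

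They lie at chr2:75704885-75704913 for Nfe2l2, chr10:82859104-82859132 for Txnrd1, chr16:90220696-90220724 for Sod1, chr3:107895802-107895830 for Gstm5, chr6:138140461-138140489 for Mgst1, chr14:118676936-118676964 for Abcc4, chr9:86695902-86695930 for Me1 and chr4:116685456-116685484 for Prdx1. Me1, for malic enzyme, and Prdx1, for a peroxiredoxin, carry the same 9 letters, TGACTCAGC, whose first part TGACTCA is also the recognition sequence of AP-1. The Abcc4, Txnrd1, Mgst1 and Me1 windows lie within the annotated span of the gene, that of Gstm5 runs across its first base, and a second Abcc4 start held TGACCCCGC. A match describes the letters of the window and is no evidence of binding, and members without a match were not searched beyond it.

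In the carcinoma cells the antioxidant genes did not move together with the TGF-beta reporter. Without pairing of libraries (the unpaired fit), 1 of 36 tested members passed an adjusted p of 0.05 in the quasi-likelihood test of edgeR, adjusted over all genes by Benjamini-Hochberg. It was Txnrd1, for the cytosolic reductase of thioredoxin, with a log2 difference of -0.45. Over all 13604 genes tested the share called was 0.809%, with 0.573% higher and 0.235% lower. In the paired fit, which takes the replicate number as a block, 7 members were higher and 7 lower in reporter-positive cells, where 10.7% of all genes were called higher and 7.34% lower (18.0% together); the difference between the members' share and that of all genes was not tested. The called members were split between the glutathione transferases, of which Gsta4, Gstm5 and Gsto1 rose and Gstm1, Gstm2, Mgst1 and Mgst3 fell in the paired fit, and single genes of the other roles. The median log2 difference of the 36 members was 0.01 in the unpaired and -0.02 in the paired fit, against 0.00 and 0.00 over all genes. Groups did not overlap for 5 of 36 members (1 above and 4 below), against 28.2% of all genes (14.6% above and 13.6% below). In the paired fit 3 of 5 suprabasal keratinocyte, 2 of 8 macrophage and 2 of 4 neutrophil markers were also higher in reporter-positive cells. The neutrophil markers called were S100a8 (1.38) and S100a9 (1.45), which keratinocytes also make. Csf3r (-0.11) and Retnlg (-0.33) of the same list were lower without a call. So were Krt10 (-0.28) and Lor (-0.35) of the suprabasal list. The part of these cells in the differences below was not tested. Gstt1 was left out of the test by the filter on low counts.

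**Figure D1:**
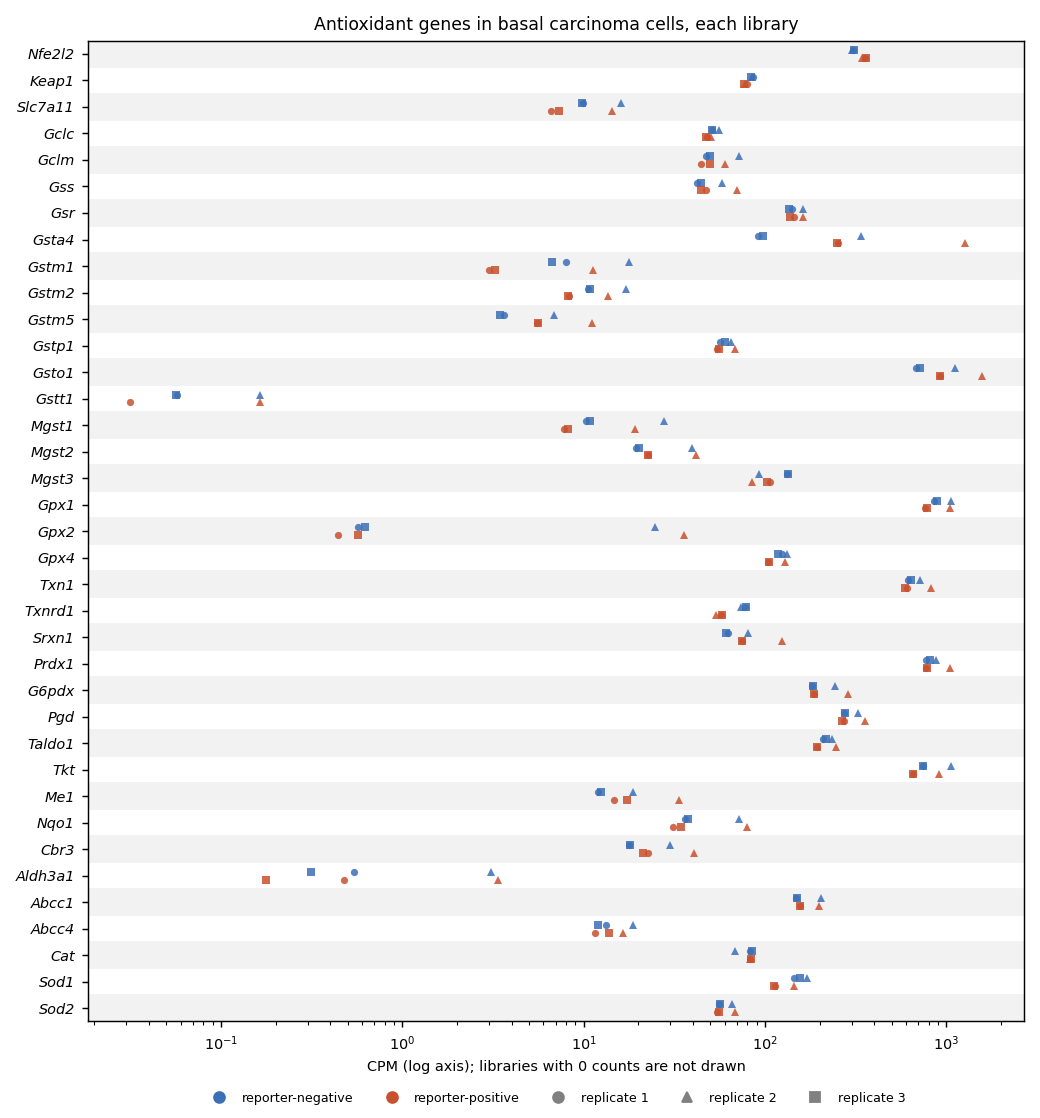
CPM (log axis) of the 37 antioxidant genes in the 6 libraries of basal carcinoma cells, with reporter-negative libraries in blue, reporter-positive libraries in red and a symbol for each replicate number. Replicate 2 (triangles) lies to the right of replicates 1 and 3 in both groups for most genes, and Gpx2 shows the widest gap.

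The transcript of the transcription factor gene Nfe2l2 was slightly higher in reporter-positive cells. Nfe2l2 (chromosome 2, 75675513 to 75704641, - strand, GRCm38, GENCODE M21) was at 306, 302 and 309.5 CPM in reporter-negative replicates 1 to 3 and at 358, 341 and 362 CPM in reporter-positive replicates 1 to 3. All 3 positive libraries lay above all 3 negative ones. The Nfe2l2 log2 difference was 0.21 ± 0.05 (SE, adjusted p = 0.0322) in the paired fit and 0.21 ± 0.06 (adjusted p = 0.123) in the unpaired fit, and paired values without number 1 or 3 were 0.20 (adjusted p = 0.297) and 0.20 (adjusted p = 0.245). Keap1 (chromosome 9, 21229730 to 21239361, - strand), whose product marks NRF2 for degradation, was at 85.6, 84.6 and 83.2 CPM in reporter-negative replicates 1 to 3 and at 79.8, 77.2 and 76.3 CPM in reporter-positive replicates 1 to 3. Each positive library lay below each negative one, with a small gap. The Keap1 log2 difference was -0.12 ± 0.05 (SE, adjusted p = 0.121) in the paired fit and was not called in either fit. An antisense gene, Gm16754, overlaps Keap1 exons on the other strand, and since the strand setting of the counting is not given in the sources used here, reads of the pair cannot be told apart.

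No gene of glutathione supply was called in either fit. Slc7a11, which encodes the cystine-glutamate antiporter, was at 9.96, 16 and 9.81 CPM in reporter-negative replicates 1 to 3 and at 6.64, 14.4 and 7.35 CPM in reporter-positive replicates 1 to 3, a paired log2 difference of -0.37 ± 0.11 (SE, adjusted p = 0.0596). The positive library was the lower one of each number, and the groups overlapped, with both replicates 2 high. Gclc and Gclm, the catalytic and modifier subunits of glutamate-cysteine ligase, differed by -0.11 and -0.11 as paired log2 values, Gss, glutathione synthetase, by 0.15, and Gsr, glutathione reductase, by 0.02. Their adjusted p ranged from 0.162 to 0.781. Gclc did not overlap between groups, at 50.7, 55.5 and 51.1 CPM in the negative and 48.1, 50.1 and 47.5 CPM in the positive libraries.

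Among the glutathione transferases, which couple glutathione to reactive compounds, the largest difference was in Gsta4, whose product conjugates aldehydes from lipid peroxidation. Gsta4 (chromosome 9, 78182774 to 78209349, + strand) was at 90.9, 337 and 97.3 CPM in reporter-negative replicates 1 to 3 and at 251, 1267 and 250.4 CPM in reporter-positive replicates 1 to 3. Replicate 2 was highest in both groups, so the groups overlapped, but the positive library was higher within each number. The Gsta4 log2 difference was 1.58 ± 0.11 (SE, adjusted p = 0.00227) in the paired fit and 1.75 ± 0.83 (adjusted p = 0.317) in the unpaired fit, and in the paired fit it was 1.41 without number 2. The unpaired Gsta4 difference was 0.51 without positive replicate 2 and 2.64 without negative replicate 2, and those of Gstm5 and Gsto1 were likewise lowest and highest without these libraries. Gstm5 (chromosome 3, 107895821 to 107898686, + strand), a mu-class transferase, was at 3.64, 6.84 and 3.46 CPM in reporter-negative replicates 1 to 3 and at 5.50, 11.2 and 5.58 CPM in reporter-positive replicates 1 to 3. Replicate 2 was again high, the groups overlapped, and the positive library was higher within each number. The Gstm5 log2 difference was 0.67 ± 0.10 (SE, adjusted p = 0.0124) in the paired fit and 0.68 ± 0.39 (adjusted p = 0.407) in the unpaired fit. Gsto1 (chromosome 19, 47854970 to 47864790, + strand), an omega-class transferase, was at 679.7, 1111 and 713 CPM in reporter-negative replicates 1 to 3 and at 919, 1568 and 918 CPM in reporter-positive replicates 1 to 3, with replicate 2 the highest of each group and the groups overlapping. The Gsto1 log2 difference was 0.43 ± 0.05 (SE, adjusted p = 0.00800) in the paired fit and 0.44 ± 0.28 (adjusted p = 0.456) in the unpaired fit. The counts of Gstm5 can include reads of the antisense gene 4933431E20Rik, which overlaps its exons.

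Other transferases were lower in the reporter-positive cells of each number. Gstm1 (chromosome 3, 108012255 to 108017973, - strand), also of the mu class, was at 8.0, 17.9 and 6.72 CPM in reporter-negative replicates 1 to 3 and at 3.0, 11.2 and 3.23 CPM in reporter-positive replicates 1 to 3. Replicate 2 was high in both groups, and within each number the positive library was the lower one. The Gstm1 log2 difference was -1.0 ± 0.15 (SE, adjusted p = 0.0118) in the paired fit and -0.90 ± 0.62 (adjusted p = 0.500) in the unpaired fit. Gstm2 (chromosome 3, 107981702 to 107986453, - strand), its neighbour on the chromosome, was at 10.5, 17.2 and 10.8 CPM in reporter-negative replicates 1 to 3 and at 8.35, 13.6 and 8.24 CPM in reporter-positive replicates 1 to 3. It also was lower in each positive library than in the negative one of the same number, by a smaller step. The Gstm2 log2 difference was -0.35 ± 0.08 (SE, adjusted p = 0.0305) in the paired fit and -0.35 ± 0.28 (adjusted p = 0.563) in the unpaired fit, and -0.36 (adjusted p = 0.130) and -0.34 (adjusted p = 0.154) without number 1 or 3 in the paired fit. Of the 50-base words in Gstm1 transcripts 18.9% occur in other genes, most of them in the pseudogene Gstm2-ps1, so the counts of Gstm1 are uncertain to that extent. The share was 5.65% for Gstm2 and 9.44% for Gstm5.

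Mgst1 (chromosome 6, 138140316 to 138156755, + strand), a membrane-bound transferase of the microsomal family, was at 10.3, 27.7 and 10.9 CPM in reporter-negative replicates 1 to 3 and at 7.81, 19.1 and 8.24 CPM in reporter-positive replicates 1 to 3. Both replicates 2 were high, the groups overlapped, and the negative library exceeded the positive one in each number. The Mgst1 log2 difference was -0.45 ± 0.08 (SE, adjusted p = 0.0163) in the paired fit and -0.47 ± 0.51 (adjusted p = 0.688) in the unpaired fit; leaving out negative replicate 2 alone turned the unpaired difference to 0.14. Mgst3 (chromosome 1, 167371966 to 167393841, - strand), of the same family, was at 132, 92.3 and 134 CPM in reporter-negative replicates 1 to 3 and at 107, 85.1 and 103 CPM in reporter-positive replicates 1 to 3, and here replicate 2 was the lowest of each group and the groups overlapped. The Mgst3 log2 difference was -0.27 ± 0.06 (SE, adjusted p = 0.0348) in the paired fit and -0.28 ± 0.16 (adjusted p = 0.411) in the unpaired fit, and -0.25 (adjusted p = 0.141) and -0.21 (adjusted p = 0.202) in the paired fit without number 1 or 3. Mgst2 and the pi-class gene Gstp1 differed by 0.15 and -0.04 in the paired fit and were not called. Gstt1, of the theta class, had 2, 5 and 2 counts in the negative and 1, 5 and 0 counts in the positive libraries, close to or under the floor. Gstp1 shares 33.7% of its 50-base words with Gstp2.

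The glutathione peroxidases, which reduce hydrogen peroxide and lipid peroxides, were not called. Gpx1, a gene of high CPM per kb in carcinoma cells, was at 854, 1055 and 882 CPM in reporter-negative replicates 1 to 3 and at 767, 1052 and 778 CPM in reporter-positive replicates 1 to 3. The groups overlapped, with replicate 2 high in both. The paired Gpx1 log2 difference was -0.11 ± 0.06 (SE, adjusted p = 0.223). Gpx2, the epithelial form, had 20, 756 and 22 counts in reporter-negative and 14, 1096 and 16 in reporter-positive replicates 1 to 3, which is 0.569, 24.7 and 0.624 CPM and 0.443, 36 and 0.569 CPM. The gene was high in replicate 2 of both groups and low in the other 4 libraries. Gpx4, which protects membranes from lipid peroxidation, differed by -0.15 ± 0.06 (SE, adjusted p = 0.109) in the paired fit.

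In the thioredoxin system, which reduces protein disulfides and peroxiredoxins, the reductase fell and sulfiredoxin rose. Txnrd1 (chromosome 10, 82833951 to 82897712, + strand) was at 78, 73.5 and 78.9 CPM in reporter-negative replicates 1 to 3 and at 57.5, 53.5 and 58.1 CPM in reporter-positive replicates 1 to 3. The 6 libraries formed 2 narrow ranges that did not overlap. The Txnrd1 log2 difference was -0.45 ± 0.05 (SE, adjusted p = 0.00557) in the paired fit and -0.45 ± 0.06 (adjusted p = 0.0475) in the unpaired fit. The unpaired call was lost on leaving out any 1 library except positive replicate 2, with adjusted p from 0.0873 to 0.271, and the log2 difference then stayed between -0.48 and -0.43. Srxn1 (chromosome 2, 152105516 to 152111376, + strand), sulfiredoxin, which restores overoxidized peroxiredoxins, was at 62.3, 80.3 and 61.2 CPM in reporter-negative replicates 1 to 3 and at 75, 124 and 74.9 CPM in reporter-positive replicates 1 to 3. The ratio of positive to negative library was 1.20, 1.55 and 1.22 for numbers 1 to 3, and the groups overlapped. The Srxn1 log2 difference was 0.40 ± 0.08 (SE, adjusted p = 0.0236) in the paired fit and 0.43 ± 0.23 (adjusted p = 0.370) in the unpaired fit, and 0.27 without number 2. Txn1, thioredoxin itself, and Prdx1, a peroxiredoxin, differed by 0.03 and 0.07 in the paired fit, with adjusted p of 0.773 and 0.532.

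The enzymes of the pentose phosphate route and malic enzyme supply NADPH or the sugar phosphates that feed it. In the paired fit 2 of 5 were called, where 18.0% of all genes were. Me1 (chromosome 9, 86581371 to 86695953, - strand), malic enzyme, was at 12, 18.8 and 12.4 CPM in reporter-negative replicates 1 to 3 and at 14.8, 33.4 and 17.2 CPM in reporter-positive replicates 1 to 3. Positive replicate 2 was far above the rest, the groups overlapped, and the positive library was higher in each number. The Me1 log2 difference was 0.54 ± 0.11 (SE, adjusted p = 0.0243) in the paired fit and 0.60 ± 0.34 (adjusted p = 0.409) in the unpaired fit, and 0.38 without number 2. Tkt (chromosome 14, 30548359 to 30574720, + strand), transketolase, was at 743, 1063 and 745 CPM in reporter-negative replicates 1 to 3 and at 652, 910.1 and 650.4 CPM in reporter-positive replicates 1 to 3, lower in the positive library of each number. The Tkt log2 difference was -0.20 ± 0.05 (SE, adjusted p = 0.0380) in the paired fit and -0.21 ± 0.20 (adjusted p = 0.637) in the unpaired fit, and -0.21 (adjusted p = 0.331) and -0.21 (adjusted p = 0.279) without number 1 or 3. G6pdx, Pgd and Taldo1 differed by 0.10, 0.02 and -0.06 in the paired fit and were not called. Me1 shares 28.3% of its 50-base words with other genes, chiefly Gm7049, and G6pdx overlaps Ikbkg on the other strand.

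Of the detoxifying oxidoreductases, Cbr3 was called in the paired fit. Cbr3 (chromosome 16, 93683215 to 93690990, + strand), a carbonyl reductase, was at 17.7, 29.9 and 18.1 CPM in reporter-negative replicates 1 to 3 and at 22.6, 40.8 and 21.2 CPM in reporter-positive replicates 1 to 3. Both replicates 2 stood above the rest, and the positive library was higher in each number. The Cbr3 log2 difference was 0.35 ± 0.07 (SE, adjusted p = 0.0227) in the paired fit and 0.37 ± 0.32 (adjusted p = 0.601) in the unpaired fit, 0.34 (adjusted p = 0.0732) in the paired fit without number 1, and -0.01 in the unpaired fit without positive replicate 2. Nqo1, the quinone reductase often used to read NRF2 activity, was at 36.1, 71.8 and 37.8 CPM in reporter-negative replicates 1 to 3 and at 31.2, 80 and 34.4 CPM in reporter-positive replicates 1 to 3. Reporter-positive cells were lower in numbers 1 and 3 and higher in number 2. The Nqo1 log2 difference was -0.06 ± 0.08 (SE, adjusted p = 0.662) in the paired fit and 0.00 ± 0.44 (adjusted p = 1.0) in the unpaired fit. Aldh3a1, an aldehyde dehydrogenase of surface epithelia, was at 0.541, 3.08 and 0.312 CPM in reporter-negative replicates 1 to 3 and at 0.474, 3.38 and 0.178 CPM in reporter-positive replicates 1 to 3, with high values in replicate 2 alone. The exporters Abcc1 and Abcc4 differed by 0.04 and -0.06 in the paired fit.

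Sod1 (chromosome 16, 90220754 to 90226329, + strand), the cytosolic superoxide dismutase, was at 145, 169.5 and 156 CPM in reporter-negative replicates 1 to 3 and at 114, 144 and 112 CPM in reporter-positive replicates 1 to 3. Each positive library lay below each negative library, by a narrow margin in replicate 2 of the positive cells. The Sod1 log2 difference was -0.35 ± 0.06 (SE, adjusted p = 0.0153) in the paired fit and -0.34 ± 0.12 (adjusted p = 0.184) in the unpaired fit, and -0.29 (adjusted p = 0.0802) in the paired fit without number 3. Sod2, the mitochondrial form, and Cat, catalase, had paired log2 differences of 0.00 (adjusted p = 0.975) and 0.09 (adjusted p = 0.403). Of the 14 paired calls, 8 (5 higher and 3 lower) stood when any 1 number was left out, namely Gsta4, Gstm5, Gsto1, Srxn1 and Me1 higher and Gstm1, Mgst1 and Txnrd1 lower. With the counts of replicates 1 and 3 of each group summed, the paired fit called Gsta4, Gstm5, Srxn1 and Me1 higher and Gstm1 and Txnrd1 lower, where 4.80% and 1.69% of genes (6.49% together) were called. Without number 2 the unpaired fit called 8 members higher and 13 lower, where 20.4% and 19.2% of genes (39.7% together) were called. The paired fits without numbers 1, 2 and 3 called 5, 8 and 6 members higher, where 7.67%, 21.5% and 5.81% of genes were, and 4, 13 and 3 lower, where 3.62%, 20.6% and 2.46% of genes were, which is 11.3%, 42.1% and 8.27% in either direction. Without positive replicate 2 alone the unpaired fit called Nfe2l2 higher and Txnrd1 and Sod1 lower, where 4.52% of genes were called, 2.85% higher and 1.67% lower.

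Most members were highest in replicate 2 of the carcinoma cells, whichever the reporter state. Of the 36 tested members 31 were highest in replicate 2 of both groups, where 31.1% of all genes tested were, and 4 (Nfe2l2, Txnrd1, Mgst3 and Cat) were lowest there, where 31.3% of all genes were. The count was 30 or 31 of 36 under scaling by total counts, by the median of ratios and by the upper quartile, with 28.1%, 30.6% and 37.5% of all genes. The members took 0.617% to 0.632% of all counts in replicates 1 and 3 and 0.811% and 0.912% in negative and positive replicate 2.

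Replicate 2 over the mean of replicates 1 and 3 was 41.5 (reporter-negative) and 71.1 (reporter-positive) for Gpx2, and 7.22 and 10.4 for Aldh3a1. Several transferases followed, with ratios of 3.58 and 5.05 for Gsta4, 2.43 and 3.60 for Gstm1 and 2.61 and 2.38 for Mgst1. Nqo1 had ratios of 1.94 and 2.44 and the cystine antiporter gene Slc7a11 of 1.62 and 2.06. Nfe2l2 and Keap1 stayed near 1, at 0.983 and 0.946 for Nfe2l2 and at 1.0 and 0.989 for Keap1. Markers of suprabasal keratinocytes, leukocytes (6.37, 17.2 and 5.45 CPM summed in the negative and 6.39, 20.5 and 6.57 CPM in the positive libraries) and macrophages were also highest in replicate 2 of both groups, as were those of fibroblasts (67.8, 122 and 39.5 and 47.9, 157 and 36.4 CPM) and of mast cells and basophils (0.114, 0.687 and 0.227 and 0.253, 5.97 and 0.284 CPM), and their part in the ratios was not tested. In the same libraries the 4 neutrophil markers, of which S100a8 and S100a9 are also made by keratinocytes, summed to 42.9, 75.3 and 49.6 and 85.8, 369.6 and 85.6 CPM. The 8 keratinocyte markers also summed highest in replicate 2, to 71440, 80380 and 72500 and 69520, 84710 and 69450 CPM. Single markers went the other way. Itgb1, Epcam, Mrc1, Pdgfra, Csf3r and Retnlg were lowest in replicate 2 of both groups, and Ivl and Lor in replicate 2 of the negative group.

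**Figure D2:**
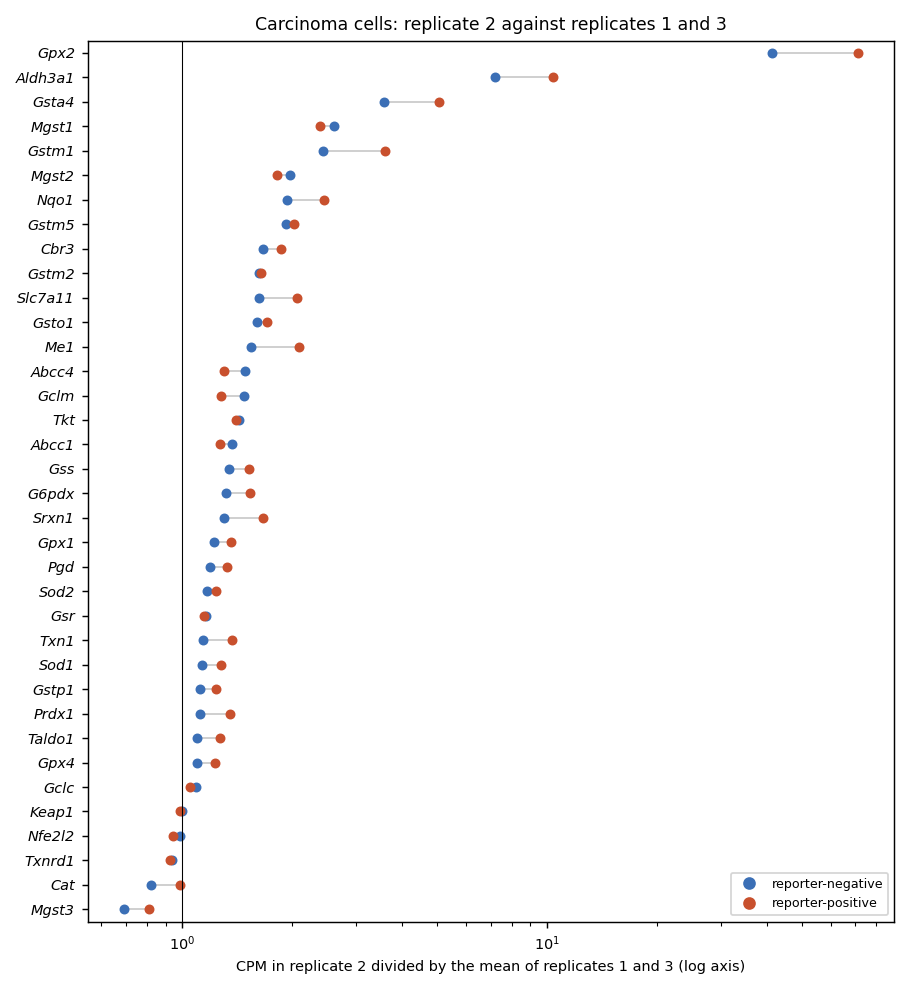
CPM in replicate 2 divided by the mean CPM of replicates 1 and 3 of the same group (log axis) for the 36 antioxidant genes tested in carcinoma cells, with reporter-negative cells in blue and reporter-positive cells in red; the vertical line marks a ratio of 1. Most genes lie to the right of 1 in both groups, Gpx2 the farthest at 41.5 and 71.1, and Mgst3, Cat, Txnrd1 and Nfe2l2 lie to the left in both.

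A wider list of 77 antioxidant genes, of which 76 matched a single row, was read beside the members. In the carcinoma cells 1 of 68 tested genes was higher and 0 lower in the unpaired fit, and 11 were higher and 7 lower in the paired fit, beside 0.573% and 0.235% of all genes without and 10.7% and 7.34% with pairing. The gene called without pairing was Gsta2, an alpha-class transferase, at 0.911, 0.916 and 0.737 CPM in reporter-negative replicates 1 to 3 and at 3.10, 4.79 and 3.09 CPM in reporter-positive replicates 1 to 3. Its positive libraries all lay above its negative ones. The Gsta2 log2 difference was 2.09 ± 0.25 (SE, adjusted p = 0.0392) in the unpaired fit. Gsta1, a close relative of Gsta2 that was chosen after its values were seen, was at 0.968, 1.44 and 1.16 CPM in reporter-negative replicates 1 to 3 and at 3.10, 14.2 and 3.52 CPM in reporter-positive replicates 1 to 3, and its log2 difference was 2.30 ± 0.35 (SE, adjusted p = 0.0117) in the paired fit and 2.55 ± 0.65 (adjusted p = 0.116) in the unpaired fit. By role, the paired fit called 3 of 8 partners and regulators of NRF2 higher (Nfe2l1, Maff and Sqstm1) and 0 lower. It called 3 of 16 transferase and glutathione turnover genes higher and 1 lower, and 0 of 8 NADPH suppliers higher and 2 lower.

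In the macrophages FceRIa-positive cells had more Gstm1 and Mgst1 transcript and less Abcc4 and Cbr3 within each replicate number, and most other members differed little. In the unpaired fit 0 of 35 tested members were called, and 0 of all 14988 genes tested (0%). At an unadjusted p under 0.05 by edgeR there were 6 of 35 members, against 15.6% of all genes, and unpaired DESeq2 called Gstm1 higher and Cbr3 and Abcc4 lower. In the paired fit 3 members were higher (Nfe2l2, Gstm1 and Mgst1) and 3 lower (Tkt, Cbr3 and Abcc4), where 10.8% and 10.2% of all genes were called. So 6 of 35 members compare with 21.0% of all genes, which does not set the list apart. Groups did not overlap for 7 of 35 members (4 above and 3 below), against 21.4% of genes (11.6% above and 9.78% below). Gstt1 and Gpx2 were left out by the filter on low counts. Of the 35 tested members 17 were lowest in replicate 2 of both groups, where 27.9% of all genes were. Another 14 of 35 were highest in replicate 3 of both groups, where 19.1% of all genes were. These shares were not tested against each other. The count columns of macrophage replicate 2 carry the word New in both groups, and the sample titles do not. The median log2 difference of the members was -0.02 in the unpaired fit and 0.00 over all genes.

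Beside these differences, markers of other cells moved between the groups. The 4 dendritic cell markers, led by the Langerhans cell gene Cd207, summed to 57.7, 201 and 238 CPM in FceRIa-negative replicates 1 to 3 and to 9.86, 40.6 and 17 CPM in the positive ones, and 3 of 4 fell in the paired fit. The 8 keratinocyte markers summed to 4545, 3490 and 2796 and 3017, 2270 and 1266 CPM, with 6 of 8 lower in the paired fit (all but Itga6 and Itgb1), and the 8 macrophage markers to 11610, 10750 and 9162 and 16620, 14450 and 15690 CPM, with 6 of 8 higher. The keratinocyte sum holds, beside the keratins, Cdh1 and Epcam, which Langerhans cells also make, and Itgb1, which many cells make. Cdh1 was at 846, 547 and 1455 and 217, 139.7 and 306 CPM and Epcam at 224, 163 and 529 and 30.3, 16.1 and 47 CPM, both highest in replicate 3 of each group. Krt14 was at 1706, 1237 and 129 and 1189, 789 and 97.2 CPM and Krt5 at 714, 611 and 76.9 and 479, 385 and 54 CPM, both lowest there. T cell markers summed to 25.2, 4.37 and 31.5 and 2.65, 1.83 and 4.48 CPM and neutrophil markers to 594, 121 and 587 and 335, 139.9 and 235 CPM. None of the dendritic or keratinocyte markers was at 0 in any macrophage library. The part of these cells in the differences below was not tested.

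**Figure D3:**
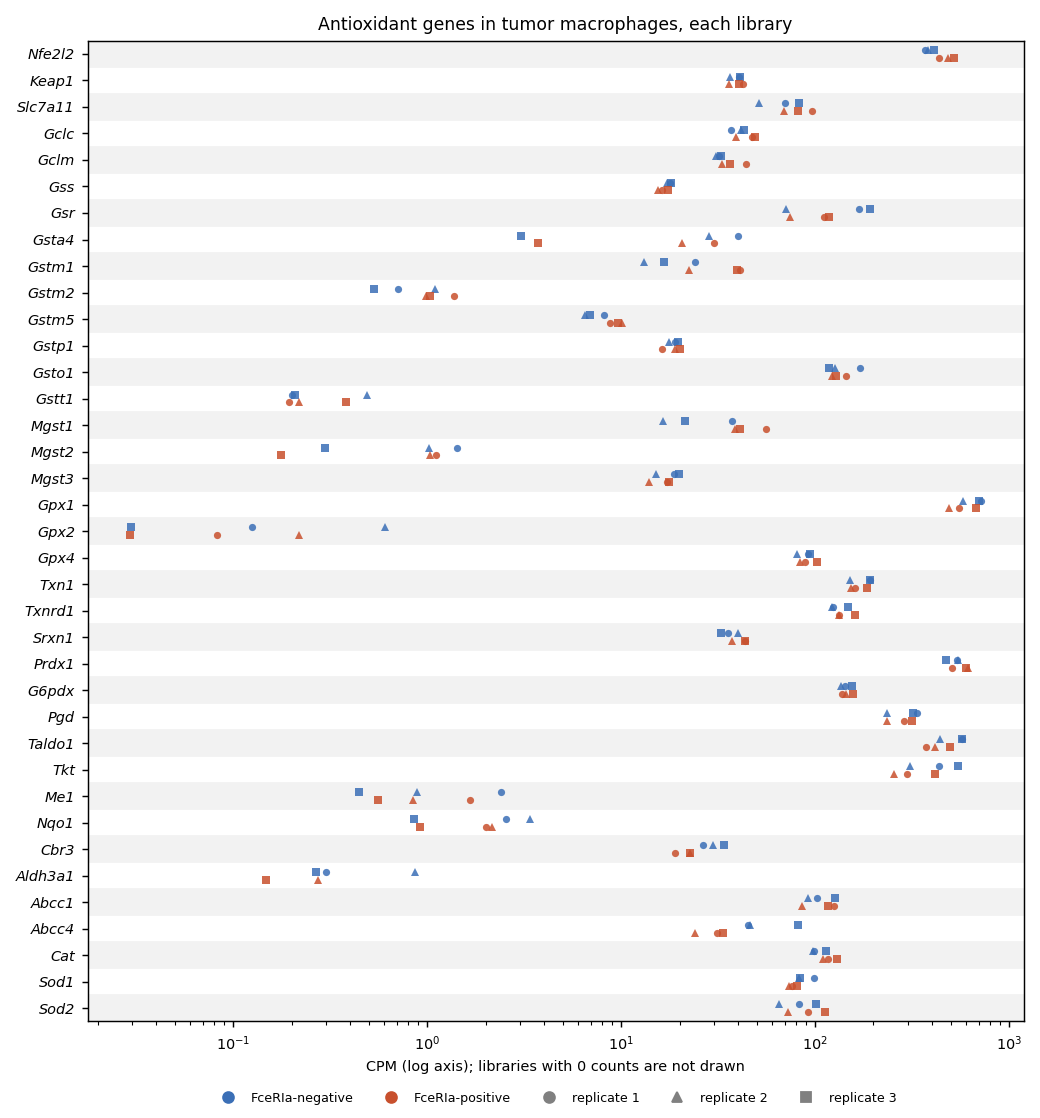
CPM (log axis) of the 37 antioxidant genes in the 6 libraries of tumor macrophages, with FceRIa-negative libraries in blue, FceRIa-positive libraries in red and a symbol for each replicate number; the Aldh3a1 library with 0 counts is not drawn. Mgst1 and Nfe2l2 show all red points to the right of the blue ones, Abcc4 and Cbr3 all to the left.

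Of the pair Nfe2l2 and Keap1, Nfe2l2 was called in the paired fit. Nfe2l2 was at 368, 381 and 412 CPM in FceRIa-negative replicates 1 to 3 and at 437, 485 and 521 CPM in FceRIa-positive replicates 1 to 3. Every positive library lay above every negative one. The Nfe2l2 log2 difference was 0.31 ± 0.08 (SE, adjusted p = 0.0312) in the paired fit and 0.31 ± 0.12 (adjusted p = 0.266) in the unpaired fit, and 0.33 (adjusted p = 0.0905) and 0.29 (adjusted p = 0.204) in the paired fit without number 1 or 2. Keap1 was at 40.6, 36.6 and 40.8 CPM in FceRIa-negative replicates 1 to 3 and at 42.7, 36 and 40.7 CPM in FceRIa-positive replicates 1 to 3, with a paired log2 difference of 0.01 ± 0.07 (SE, adjusted p = 0.913). The Keap1 groups overlapped fully.

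Gstm1 was at 24.1, 13.1 and 16.5 CPM in FceRIa-negative replicates 1 to 3 and at 40.8, 22.5 and 39.5 CPM in FceRIa-positive replicates 1 to 3. Within each number the positive library was higher, while positive replicate 2 fell among the negative libraries. The Gstm1 log2 difference was 0.93 ± 0.11 (SE, adjusted p = 0.00118) in the paired fit and 0.93 ± 0.30 (adjusted p = 0.193) in the unpaired fit, and from 0.77 to 1.01 in the paired fit when 1 number was left out. Mgst1 was at 37.4, 16.4 and 21.2 CPM in FceRIa-negative replicates 1 to 3 and at 55.9, 38.5 and 41.1 CPM in FceRIa-positive replicates 1 to 3. The groups did not overlap, by a margin of about 1 CPM between negative replicate 1 and positive replicate 2. The Mgst1 log2 difference was 0.92 ± 0.12 (SE, adjusted p = 0.00161) in the paired fit and 0.85 ± 0.32 (adjusted p = 0.252) in the unpaired fit, and from 0.76 to 1.08 without 1 number. Both genes were thus higher in FceRIa-positive macrophages and lower in reporter-positive carcinoma cells, in separate comparisons that share no library.

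Of the other transferases, Gstm5 did not overlap between groups, at 8.14, 6.49 and 6.90 CPM in the negative and 8.81, 10.1 and 9.66 CPM in the positive libraries, and was not called in the paired fit (0.41 ± 0.14, adjusted p = 0.0724). Gstm2 was at 0.533 to 1.38 CPM, with a paired log2 difference of 0.56 ± 0.32 (SE, adjusted p = 0.260). Gsto1, Gstp1, Mgst2 and Mgst3 differed by -0.27 to -0.03 in the paired fit. Gsta4 was at 40.1, 28.3 and 3.05 CPM in FceRIa-negative replicates 1 to 3 and at 30, 20.7 and 3.74 CPM in FceRIa-positive replicates 1 to 3, with low values in replicate 3 of both groups. Gstt1 had 8, 21 and 7 counts in the negative and 7, 8 and 13 counts in the positive libraries.

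Genes of glutathione supply were not called in the macrophages. Slc7a11 was at 70.2, 51.2 and 82.3 CPM in FceRIa-negative replicates 1 to 3 and at 96.4, 68.9 and 81.7 CPM in FceRIa-positive replicates 1 to 3, higher in the positive library of numbers 1 and 2 and level in number 3. The paired Slc7a11 log2 difference was 0.29 ± 0.10 (SE, adjusted p = 0.0802). Gclm did not overlap between groups, at 32.1, 30.7 and 32.6 CPM in the negative and 44.3, 32.9 and 36.6 CPM in the positive libraries (0.24 ± 0.09 SE, adjusted p = 0.0937 in the paired fit), and Gclc and Gss differed by 0.15 and -0.11. Gsr was at 168, 71.1 and 192 CPM in FceRIa-negative replicates 1 to 3 and at 111, 74 and 118 CPM in FceRIa-positive replicates 1 to 3. Replicate 2 was low in both groups, and the difference was negative in numbers 1 and 3 and close to 0 in number 2. Paired edgeR gave -0.42 ± 0.14 (SE, adjusted p = 0.0695), and paired DESeq2 called Gsr lower.

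The peroxidases and the thioredoxin system showed no call in either fit. Gpx1, the member of highest CPM per kb in the macrophages, was at 718, 577 and 702 CPM in FceRIa-negative replicates 1 to 3 and at 549, 490.2 and 676 CPM in FceRIa-positive replicates 1 to 3, with a paired log2 difference of -0.23 ± 0.10 (SE, adjusted p = 0.144). Gpx2 had 5, 26 and 1 counts in the negative and 3, 8 and 1 counts in the positive libraries. Gpx4, Txn1, Txnrd1, Srxn1 and Prdx1 differed by between -0.10 and 0.20 in the paired fit. Txnrd1, which fell in the reporter-positive carcinoma cells, was at 123, 123 and 148 CPM in FceRIa-negative replicates 1 to 3 and at 133, 133 and 160.1 CPM in FceRIa-positive replicates 1 to 3, with overlapping groups.

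In the NADPH group Tkt was called in the paired fit. Tkt was at 437, 309 and 546 CPM in FceRIa-negative replicates 1 to 3 and at 297, 255 and 417 CPM in FceRIa-positive replicates 1 to 3. The groups overlapped, and the negative library was higher in each number. The Tkt log2 difference was -0.41 ± 0.09 (SE, adjusted p = 0.0146) in the paired fit and -0.42 ± 0.26 (adjusted p = 0.547) in the unpaired fit, and -0.35 (adjusted p = 0.0844) in the paired fit without number 1. Taldo1, for transaldolase, was lower on average without a call (-0.30 ± 0.12 SE, adjusted p = 0.111), while G6pdx and Pgd differed by 0.02 and -0.08. Me1 was at 2.41, 0.884 and 0.444 CPM in FceRIa-negative replicates 1 to 3 and at 1.66, 0.846 and 0.560 CPM in FceRIa-positive replicates 1 to 3.

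Cbr3 was at 26.5, 29.6 and 34.1 CPM in FceRIa-negative replicates 1 to 3 and at 19, 22.5 and 22.6 CPM in FceRIa-positive replicates 1 to 3. Every positive library lay below every negative one. The Cbr3 log2 difference was -0.49 ± 0.08 (SE, adjusted p = 0.00456) in the paired fit and -0.49 ± 0.14 (adjusted p = 0.143) in the unpaired fit. Abcc4 (chromosome 14, 118482692 to 118706219, - strand), an exporter of organic anions and cyclic nucleotides, was at 45, 46.1 and 82 CPM in FceRIa-negative replicates 1 to 3 and at 31.2, 24.1 and 33.6 CPM in FceRIa-positive replicates 1 to 3. The groups did not overlap, and negative replicate 3 stood far above the other 5 libraries. The Abcc4 log2 difference was -0.92 ± 0.13 (SE, adjusted p = 0.00235) in the paired fit and -0.96 ± 0.26 (adjusted p = 0.136) in the unpaired fit, and -0.73 in the paired fit without number 3. Abcc1, which exports glutathione conjugates, differed by 0.03, and Nqo1 and Aldh3a1 by -0.35 and -1.80, in the paired fit without a call, Aldh3a1 at 0 to 37 counts a library. Sod1 was at 98.6, 82.8 and 84.1 CPM in FceRIa-negative replicates 1 to 3 and at 76.4, 73.1 and 80.8 CPM in FceRIa-positive replicates 1 to 3, all positive libraries below the negative ones, with a paired log2 difference of -0.20 ± 0.08 (SE, adjusted p = 0.121). Cat and Sod2 differed by 0.20 and 0.15 and were not called.

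Of the 6 paired calls, Gstm1, Mgst1, Cbr3 and Abcc4 stood when any 1 number was left out. The paired fits without numbers 1, 2 and 3 called 2, 2 and 5 members higher, where 4.11%, 8.66% and 11.2% of genes were, and 2, 4 and 8 lower, where 4.54%, 9.17% and 10.4% of genes were, which is 8.64%, 17.8% and 21.6% in either direction. On the wider list, 0 of 68 genes were called without pairing and 16 were higher and 5 lower in the paired fit, where 10.8% and 10.2% of all genes were. Hmox1, for heme oxygenase, was at 177, 120 and 129.5 CPM in FceRIa-negative replicates 1 to 3 and at 495, 292 and 289.9 CPM in FceRIa-positive replicates 1 to 3, Gpx3, for the secreted peroxidase, at 17.9, 10.9 and 16.5 and 51, 25.8 and 39.6 CPM. For both genes each positive library lay above each negative one. Their paired log2 differences were 1.31 ± 0.09 (SE, adjusted p = 0.00017) and 1.34 ± 0.09 (SE, adjusted p = 0.000137). Abcc3, for an exporter of conjugates, and Blvrb, for biliverdin reductase B, differed by 1.07 ± 0.12 (SE, adjusted p = 0.000911) and 0.84 ± 0.10 (SE, adjusted p = 0.00124). Without pairing these 4 genes had adjusted p between 0.0591 and 0.0791. Of the 5 heme and iron genes 4 were higher. Of the 8 partners and regulators of NRF2 3 were higher (Bach1, Bach2 and Mafg) and 1 lower (Maff). That role holds repressors such as Bach2 beside partners, so its count gives no direction of NRF2 activity.

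**Figure D4:**
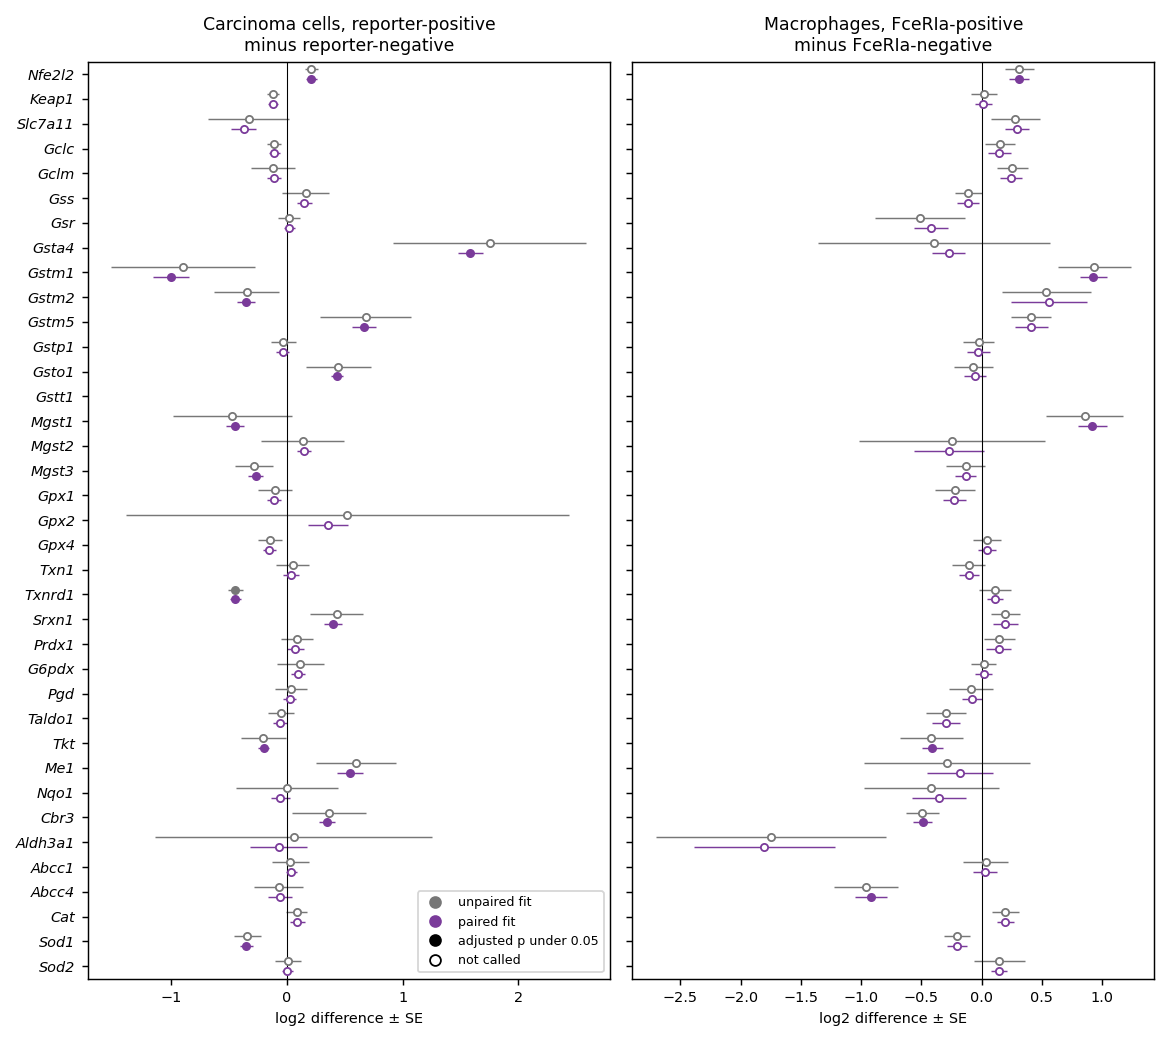
Log2 difference ± SE of each tested antioxidant gene between reporter-positive and reporter-negative carcinoma cells (left) and between FceRIa-positive and FceRIa-negative macrophages (right), on axes of different range; grey is the unpaired and purple the paired fit, and filled points have an adjusted p under 0.05. Txnrd1 is the 1 member called without pairing, and pairing narrows the error of most members without moving their value far.

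Between the cell types most members differed, as did most genes. Of 36 tested members 23 were higher in carcinoma cells and 9 in macrophages, where 40.6% and 44.8% of the 16279 genes tested were, so 32 of 36 members stand beside 85.4% of all genes. With a log2 difference of at least 1 there were 15 and 5 members, against 26.7% and 31.7% of genes, and the median of the members was 0.71 against -0.09 over all genes. Transferases and NADPH-linked genes such as Mgst2, Gsta4, Gstm2, Me1 and Nqo1 were at a small part of their carcinoma level in the macrophages, while Slc7a11, Abcc4 and Taldo1 were higher there. Cell type, sort and count table cannot be told apart in this contrast, and with the positive and negative library of each number summed, 22 members were higher and 10 lower. Levels below are CPM per kb of the principal transcript on a scale shared by all 12 libraries, given as the lowest, median and highest of 6 libraries.

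**Figure D5:**
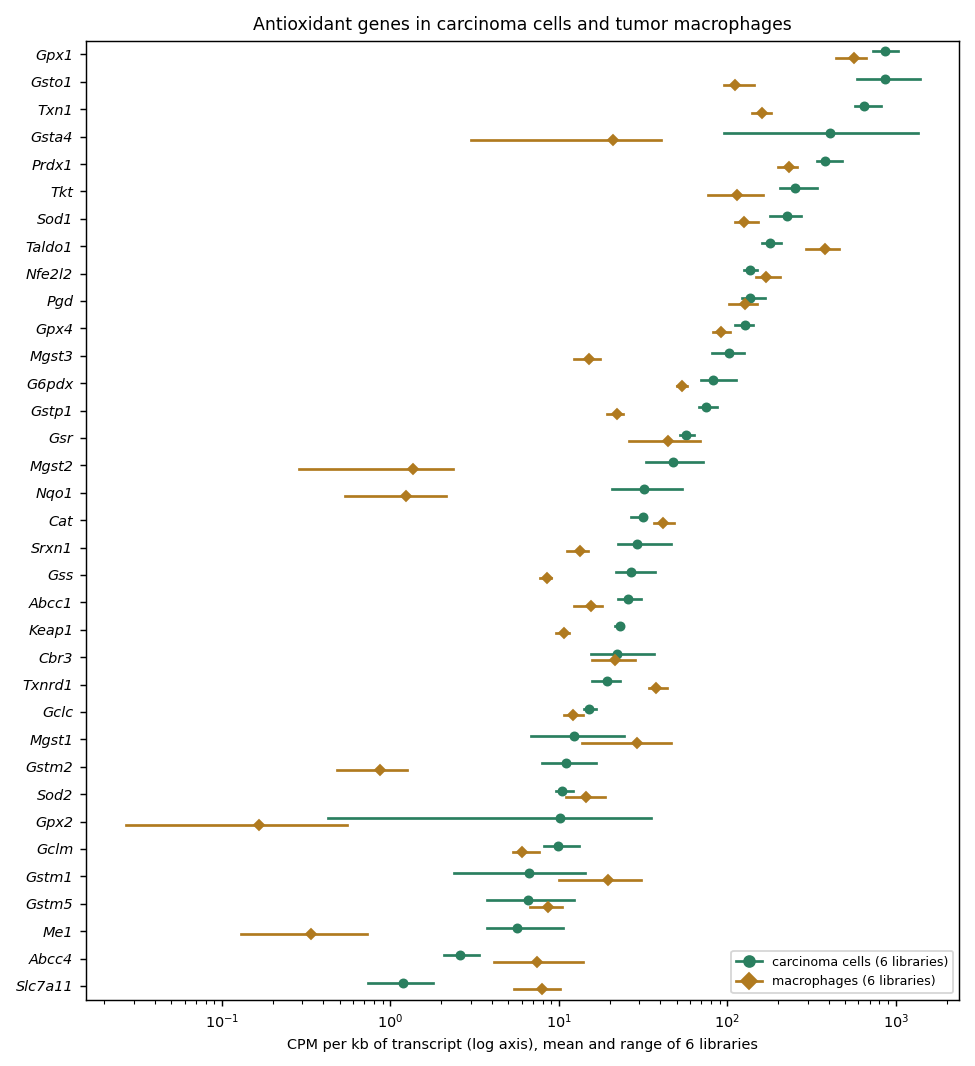
CPM per kb of transcript (log axis), mean (symbol) and range (line) over 6 libraries, for 35 antioxidant genes in carcinoma cells (green) and macrophages (brown), ordered by the mean in carcinoma cells; Gstt1 and Aldh3a1, with a library at 0 counts, are not drawn. Ranges are apart for most genes, with Mgst2, Nqo1, Gstm2 and Me1 far to the left in macrophages and Slc7a11 and Abcc4 to the right.

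Gpx1 stood at or near the top of the order of levels in both cell types. It was at 734, 828 and 1025 in the carcinoma cells and 443, 569.9 and 662 in the macrophages, and was the highest member in every macrophage library. In the carcinoma cells Gsto1 (587, 795 and 1386) lay at a close mean, below Gpx1 in each reporter-negative and above it in each reporter-positive library. Txn1 (574, 607 and 819) and Gsta4 (94.9, 263 and 1355) followed by mean over the 6 libraries, each with a range that overlaps that of Gpx1. In the macrophages Taldo1 (294, 371 and 461) and Prdx1 (200.2, 233 and 259.6) came next by mean over the 6 libraries, followed by Nfe2l2 (147, 166 and 204) and Txn1 (141, 159.6 and 182) at close levels, and the ranges of Gpx1 and Taldo1 overlap. The log2 difference between cell types was 0.62 ± 0.13 (SE, adjusted p = 0.000754) for Gpx1.

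Nfe2l2 was at 126, 136 and 149 in the carcinoma cells and 147, 166 and 204 in the macrophages, slightly lower in the carcinoma cells (-0.31 ± 0.07 SE, adjusted p = 0.00105). Keap1 was at 21.5, 23.1 and 24.2 in the carcinoma cells and 9.64, 10.9 and 11.4 in the macrophages, higher in the carcinoma cells with ranges well apart (1.11 ± 0.06 SE, adjusted p = 1.42e-08). The factor and its inhibitor thus differed in opposite directions. Slc7a11, the cystine antiporter, was at 0.739, 1.10 and 1.79 in the carcinoma cells and 5.43, 8.07 and 10.1 in the macrophages, all carcinoma libraries below all macrophage libraries (-2.73 ± 0.23 SE, adjusted p = 6.44e-07). Gss, glutathione synthetase, was at 22, 24 and 37.1 in the carcinoma cells and 7.68, 8.62 and 8.99 in the macrophages, the other way round (1.66 ± 0.13 SE, adjusted p = 2.85e-07). Gclc was at 14.1, 15.2 and 16.7 in the carcinoma cells and 10.7, 12 and 13.9 in the macrophages and Gclm at 8.12, 9.13 and 13.2 in the carcinoma cells and 5.37, 5.70 and 7.65 in the macrophages. Both ligase subunits were higher in carcinoma cells, by 0.32 ± 0.07 (SE, adjusted p = 0.00118) and 0.71 ± 0.13 (SE, adjusted p = 0.000258), without overlap. Exons of Gss overlap those of Acss2, Gssos1 and Gssos2 on the other strand, and exons of Gclm overlap those of Gm17494 and Gm6061. The counts of Gss and Gclm can therefore include reads of these genes. Gsr was at 52.2, 54.7 and 63.4 in the carcinoma cells and 26, 41.4 and 69.2 in the macrophages and was not called (0.37 ± 0.21 SE, adjusted p = 0.124).

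The transferases showed the widest range. Mgst2 was at 33.1, 38.6 and 71.8 in the carcinoma cells and 0.285, 1.66 and 2.35 in the macrophages (5.10 ± 0.47 SE, adjusted p = 1.2e-06). Gsta4 was at 94.9, 263 and 1355 in the carcinoma cells and 3.01, 24.4 and 40.6 in the macrophages (4.03 ± 0.79 SE, adjusted p = 0.00057), and at 3.41 on the log2 scale without positive replicate 2. Gstm2 was at 7.90, 10.2 and 16.6 in the carcinoma cells and 0.483, 0.918 and 1.25 in the macrophages (3.67 ± 0.25 SE, adjusted p = 9.68e-08). None of these ranges overlap, and macrophage levels were lowest for Gstm2 and Mgst2. Gsto1 was at 587, 795 and 1386 in the carcinoma cells and 96.1, 105 and 143 in the macrophages (2.93 ± 0.20 SE, adjusted p = 1.08e-07). Mgst3 was at 81, 97.6 and 125 in the carcinoma cells and 12.4, 15.4 and 17.4 in the macrophages (2.74 ± 0.12 SE, adjusted p = 3.65e-09) and Gstp1 at 67.6, 72.5 and 86.4 in the carcinoma cells and 19.2, 22.7 and 23.9 in the macrophages (1.76 ± 0.09 SE, adjusted p = 7.66e-09). These 3 were well expressed in macrophages too, at a lower level than in every carcinoma library.

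Other transferases ran the other way. Gstm1 was at 2.39, 5.84 and 14.3 in the carcinoma cells and 9.98, 17.7 and 30.6 in the macrophages (-1.56 ± 0.39 SE, adjusted p = 0.00276), and Mgst1 at 6.87, 9.28 and 24.4 in the carcinoma cells and 13.7, 31.8 and 46.3 in the macrophages (-1.20 ± 0.34 SE, adjusted p = 0.0060). Both ranges overlapped, through replicate 2 of the carcinoma cells and the FceRIa-negative macrophages, and leaving out 1 carcinoma replicate 2 gave differences of -1.83 and -2.01 for Gstm1 and of -1.50 and -1.48 for Mgst1. Gstm5 was at 3.75, 5.99 and 12.4 in the carcinoma cells and 6.72, 8.76 and 10.4 in the macrophages and was not called (-0.41 ± 0.23 SE, adjusted p = 0.113), though it was called lower without negative (-0.60, adjusted p = 0.0198) or positive (-0.62, adjusted p = 0.0105) carcinoma replicate 2. Gstt1 was at 0 to 0.165 in the carcinoma cells and 0.180 to 0.461 in the macrophages.

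Gpx2 was at 0.426, 0.572 and 35.2 in the carcinoma cells and 0.0268, 0.0957 and 0.555 in the macrophages (5.96 ± 1.55 SE, adjusted p = 0.00370). The high carcinoma values are those of replicate 2, the ranges overlapped, and the difference was 4.05 without negative and 3.66 without positive replicate 2. Gpx4, at 111, 129 and 142 in the carcinoma cells and 82.4, 92 and 104 in the macrophages, was higher in every carcinoma library (0.47 ± 0.09 SE, adjusted p = 0.000322). Txn1 was at 574, 607 and 819 in the carcinoma cells and 141, 159.6 and 182 in the macrophages (2.02 ± 0.12 SE, adjusted p = 3.14e-08), and Txnrd1, which reduces it, at 15.8, 19.1 and 22.9 in the carcinoma cells and 34.1, 36.4 and 44.1 in the macrophages (-0.98 ± 0.07 SE, adjusted p = 2.16e-07). Thioredoxin was thus higher and its reductase lower in the carcinoma cells, neither with overlap. Srxn1 was at 22.3, 27.3 and 46.2 in the carcinoma cells and 11.2, 13.4 and 15 in the macrophages (1.11 ± 0.14 SE, adjusted p = 2.24e-05) and Prdx1 at 342, 354 and 479 in the carcinoma cells and 200.2, 233 and 259.6 in the macrophages (0.70 ± 0.11 SE, adjusted p = 8.66e-05). Both were higher in every carcinoma library.

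In the NADPH group Me1 was at 3.73, 4.97 and 10.6 in the carcinoma cells and 0.130, 0.256 and 0.726 in the macrophages (4.04 ± 0.44 SE, adjusted p = 4.95e-06). Tkt was at 206, 236 and 339 in the carcinoma cells and 76.7, 109.8 and 164 in the macrophages (1.17 ± 0.19 SE, adjusted p = 0.000114) and G6pdx, for the first enzyme of the pentose phosphate route, at 69.8, 71.8 and 112 in the carcinoma cells and 50.1, 53.1 and 57.5 in the macrophages (0.61 ± 0.13 SE, adjusted p = 0.000886). All 3 were higher in the carcinoma cells without overlap. Taldo1 was at 161, 176 and 209 in the carcinoma cells and 294, 371 and 461 in the macrophages, lower in every carcinoma library (-1.07 ± 0.11 SE, adjusted p = 3.94e-06). Pgd was at 122, 127 and 168 in the carcinoma cells and 103, 132 and 150.2 in the macrophages and was not called (0.11 ± 0.13 SE, adjusted p = 0.418).

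Nqo1 was at 20.6, 24.3 and 53.8 in the carcinoma cells and 0.533, 1.30 and 2.13 in the macrophages (4.70 ± 0.42 SE, adjusted p = 9.73e-07), with ranges far apart. Cbr3 was at 15.4, 19.1 and 36.4 in the carcinoma cells and 15.7, 20.6 and 28.1 in the macrophages and was not called (0.05 ± 0.19 SE, adjusted p = 0.807), and Aldh3a1 at 0.105, 0.300 and 2.04 in the carcinoma cells and 0, 0.151 and 0.487 in the macrophages (2.41 ± 0.88 SE, adjusted p = 0.0241). The Aldh3a1 ranges overlapped, and its call was lost without carcinoma negative replicate 2 (1.62, adjusted p = 0.0936), positive replicate 2 (1.40, adjusted p = 0.125) or macrophage positive replicate 3 (2.36, adjusted p = 0.0521). Abcc1 was at 22.4, 23.6 and 30.9 in the carcinoma cells and 12.2, 15.8 and 18.1 in the macrophages (0.72 ± 0.14 SE, adjusted p = 0.000399) and Abcc4 at 2.07, 2.41 and 3.38 in the carcinoma cells and 4.09, 6.74 and 13.9 in the macrophages (-1.45 ± 0.19 SE, adjusted p = 1.93e-05), so the exporters differed in opposite directions without overlap. Cat was at 26.8, 32.6 and 33.1 in the carcinoma cells and 36.6, 41.3 and 48.3 in the macrophages (-0.38 ± 0.07 SE, adjusted p = 0.000476) and Sod2 at 9.55, 9.80 and 12.2 in the carcinoma cells and 10.9, 14.6 and 18.7 in the macrophages (-0.48 ± 0.13 SE, adjusted p = 0.00563), both lower in the carcinoma cells, with overlap for Sod2. Sod1, at 179, 233 and 272 in the carcinoma cells and 110.4, 124 and 152 in the macrophages, was higher in every carcinoma library (0.83 ± 0.09 SE, adjusted p = 4.81e-06).

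Low levels in the macrophages were set beside the keratinocyte transcripts in the same libraries. As a percentage of the mean of the 6 carcinoma libraries, Krt14, the basal keratin, was at 4.66, 3.34, 0.344, 3.17, 2.11 and 0.261% in negative replicates 1 to 3 and then positive replicates 1 to 3. Gsta4 was at 10, 6.99, 0.743, 7.31, 5.07 and 0.918% and Mgst2 at 4.97, 3.51, 1.0, 3.74, 3.52 and 0.602% in the same order. Nqo1 was at 5.07, 6.60, 1.66, 3.90, 4.18 and 1.77% and Me1 at 12.8, 4.64, 2.30, 8.58, 4.39 and 2.92%. All 5 genes were lowest in replicate 3 of both groups, a position held by 4 of 35 tested members (Nqo1, Gsta4, Me1 and Mgst2) and by 17.1% of all genes. Gstm2, also low in the macrophages, was at 5.91, 9.09, 4.37, 11.3, 8.09 and 8.51%, lowest in replicate 3 of the negative group only. In positive replicate 3 it was at 8.51%, where Krt14 was at 0.261%. Keap1, for comparison, was at 48.1, 43, 47.3, 49.5, 41.8 and 47.4%. The part of carcinoma cell RNA in the macrophage levels of these genes was not tested.

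On the wider list 28 of 71 tested genes were higher in carcinoma cells and 33 in macrophages, beside 40.6% and 44.8% of all genes. The 4 of smallest p were Glo1, glyoxalase, with a log2 difference of 2.20 ± 0.08 (SE, adjusted p = 8.45e-10), Ggt5, which cleaves extracellular glutathione conjugates (-6.47 ± 0.28 SE, adjusted p = 3.25e-09), Txnrd3, a thioredoxin and glutathione reductase (2.68 ± 0.12 SE, adjusted p = 3.27e-09), and Bach2, a transcriptional repressor that shares small MAF partners with NRF2 (-4.91 ± 0.22 SE, adjusted p = 4.13e-09). By role, 10 of 16 transferase and turnover genes were higher and 6 lower in the carcinoma cells, 0 of 5 heme and iron genes were higher and 4 lower, and 4 of 17 detoxifying and export genes were higher and 11 lower.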

How the data were processed

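RNA-seq counts were read from the authors' deposited tables, 1 for carcinoma cells and 1 for macrophages, with 3 libraries in each of 4 groups. Per the labels' protocols, RNA was extracted with Trizol and libraries were made with a TruSeq v2 kit; per the submitters' processing notes, reads were checked with FastQC and aligned with STAR to mm10 (GRCm38). The counting tool, its strand setting and its annotation were not given in the sources used here. The deposited counts cover 53801 gene rows, 0 of them naming no gene, and 53706 IDs are in GENCODE M21; 4 columns of no sample were left out.

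The members and lists were chosen with earlier results of these data known. Counts were scaled by TMM and filtered with filterByExpr, and tested with edgeR 4.0.16 in R 4.3.3 by the quasi-likelihood test over all genes, with Benjamini-Hochberg adjustment, after the procedure was tested on simulated data. A gene was called at an adjusted p under 0.05. Standard errors are the log2 difference divided by the square root of F. The unpaired fit has 4 and the paired fit 2 residual degrees of freedom. Both groups have the same replicate numbers, and what a number stands for is not in the labels. Deviations of same-numbered libraries correlated at 0.597, 0.742 and 0.588 in carcinoma cells and at 0.738, 0.845 and 0.763 in macrophages, all over 0.1, so paired values are printed. Carcinoma replicates 1 and 3 correlated across numbers too, at 0.606 and 0.593. CPM use TMM-scaled library sizes, and CPM per kb the principal GENCODE transcript.

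Every member is accounted for; library values are given for those called in either fit, for Nfe2l2, Keap1 and Gpx1, and for a few others that were chosen after their values were seen. Of the wider list, genes called without pairing, or otherwise up to 4 with the smallest p, are named. Alternatives were DESeq2 1.42.0, other scalings and filters, libraries left out and, chosen after seeing the data, the paired fits without a number, DESeq2 with the block and summed replicates 1 and 3. Genes sharing 50-base words with other genes have uncertain counts, among them Gpx4 (34.7% of its words).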

Additional observations from a re-analysis of the deposited data

How the results depend on the processing

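The number of members called in the carcinoma cells depended on the pairing. Against 1 without pairing (0.809% of all genes), the replicate block gave 14 (7 higher and 7 lower, beside 18.0% of all genes). DESeq2 gave 2 (1 higher), DESeq2 with the replicate block 13 (7 higher and 6 lower) and 1 fit over all 12 libraries 0. For the DESeq2 fits and the 12-library fit the share of all genes called is not given here, so their counts cannot be set against it. Leaving out 1 library gave 0 to 3 calls (0 to 1 higher and 0 to 2 lower), the 3 calls without positive replicate 2. With the block and both libraries of 1 number left out there were 9 to 21 calls (5 to 8 higher and 3 to 13 lower), and without the block 0 to 21 (0 to 8 higher and 0 to 13 lower), the 21 without number 2. With replicates 1 and 3 summed there were 0 calls without and 6 with the block (4 higher and 2 lower).

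In the macrophages, against 0 calls (0% of all genes), the replicate block gave 6 (3 higher and 3 lower, beside 21.0% of all genes). No filter on low counts gave 1 (lower), DESeq2 3 (1 higher and 2 lower) and DESeq2 with the block 7 (3 higher and 4 lower). For the DESeq2 fits and the fit without the filter the share of all genes called is likewise not given. The block without 1 number gave 4 to 13 (2 to 5 higher and 2 to 8 lower).

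Some small log2 differences changed sign. On leaving out 1 library, Mgst1 in carcinoma cells ranged from -1.02 to 0.14 (positive without negative replicate 2) and Cbr3 there from -0.006 to 0.65 (negative without positive replicate 2). Keap1 in macrophages ranged from -0.038 to 0.085 and was at -0.0381 with upper-quartile scaling, at -0.0278 with the replicate block without number 1 and at -0.0269 without block and number 1; without negative replicate 2 and positive replicate 3 it was -0.0233 and -0.0229. Cbr3 between cell types ranged from -0.13 to 0.15 (-0.0857 without carcinoma negative replicate 2), and was -0.0069 with numbers summed. The causes were not tested. The counts of members called between cell types stayed within 1.5 times. No paired analysis was possible between cell types because the numbers of the 2 tables are not stated to match. With 3 libraries a group, and 2 residual degrees of freedom in the paired fit, precision is limited by the number of libraries, and Gstt1 has few counts in every library.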
